A study of Mus musculus with 3 samples.

Results

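Cited1 is a transcriptional coactivator found in the least differentiated nephron progenitors. Of the cap mesenchyme set described here, it was the only gene whose RNA level was lower in Fgfrl1-/- kidney rudiments by the test used. Its level was 1.71-fold lower in the mutant pools. The call was near the threshold (limma adjusted p = 0.0442) and held in 8 of 16 other ways of processing. The homeobox factor Six2, which marks the same progenitors, had a mean difference near 0. Eya1, Six4 and Meox1 had small negative values on all 3 arrays that did not pass the test, and Osr1 and Sall1 differed in sign between arrays or probes.

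The set held 7 genes, Six2, Six4, Eya1, Osr1, Sall1, Cited1 and Meox1. All probes that carry one of these gene names in the scanner files and that are not control spots were taken, which gave 10 probes of the 41174 on the array. Six2, Six4, Sall1 and Cited1 have 1 probe each, and Eya1, Osr1 and Meox1 have 2 probes each. The probes were picked by name alone, from a list of genes drawn up with earlier results of these data known.

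The metanephric kidney forms from the ureteric bud, an epithelial tube that branches, and from the metanephric mesenchyme around it. Mesenchymal cells condense as a cap over each bud tip. These cap cells are the progenitors of the nephron, and they either renew themselves under Six2 or, on a Wnt signal from the bud, turn into the epithelium of the renal vesicle. Osr1 marks the intermediate mesoderm from which the cap arises, and Eya1 and Sall1 act in the mesenchyme before and during invasion by the bud.

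Wildtype and mutant rudiments were compared to learn which genes of nephron formation depend on Fgfrl1. Kidney rudiments were taken at E12.5 from C57BL/6 mice, either Fgfrl1-/- or wildtype. Fgfrl1 encodes a receptor that resembles the Fgf receptors but has no kinase domain, and its loss in these embryos is not restricted to the cap. A pool of 6 to 9 rudiments gave 1 RNA preparation, and 3 Fgfrl1-/- pools were each hybridized with 1 wildtype pool to an Agilent array that is read in 2 colours. The Fgfrl1-/- cRNA always carried Cy3 and the wildtype cRNA always carried Cy5. With 0 dye-swapped arrays, dye and genotype cannot be told apart in any value given here. The arrays are called 1, 2 and 3 after their labels, with no order implied.

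Array 1 lay on a different slide from arrays 2 and 3. The median signal over all spots that are not controls was between 60 and 97 in the Fgfrl1-/- channel and between 99.5 and 113 in the wildtype channel. Fgfrl1 itself was lower in every pool labelled Fgfrl1-/-, with log2 ratios of -1.21, -1.51 and -1.83 (mean -1.52 ± 0.31, SD, n = 3, limma adjusted p = 0.0332). Whether its probe lies in the deleted part of the gene was not analysed here. Markers of the cap mesenchyme were detected, since the scanner software marked all 10 member probes as well above background for either dye on each array, as it did for 22824 of all probes. With bulk RNA, fewer cap cells in a rudiment and less RNA per cap cell cannot be told apart.

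Each probe on the array is 60 bases long. The first 30 bases of the 10 probes are shown because every value below belongs to one of these sequences, and because 3 genes were read with sequences that do not overlap. The bases are written in lower case from the first base as the files list them.
Six2: ggtgtcatctatttgagttcctttctcaac
Six4: tgctgcaaaggatcctctagtgattcctga
Eya1 probe 1: aaatggccagtgttgagacctcttcatttg
Eya1 probe 2: atccagtgaaagtaagccatgagaatgttc
Osr1 probe 1: ggccgccacttcactaagtcctataaccta
Osr1 probe 2: accacctgcccaacctgtatggtttcagcg
Sall1: ggtcaacggctttgtacacgtttctcctca
Cited1: agccctgctctcattgattctgacccggtg
Meox1 probe 1: tattagatggtggatctccagatcctgctg
Meox1 probe 2: tggctcctgtgtctaaggacggagaggata

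Probe 1 is the brighter probe where a gene has a pair of them. The GC content of the whole probes ranged from 40.0% for Eya1 probe 1 to 55.0% for Cited1 and Osr1 probe 2. On the genome build mm8, which the files use, the probes lie at chr17:85592972-85593031 for Six2, at chr12:74019460-74019519 for Six4, at chr8:91920260-91920319 for Sall1 and at chrX:98450269-98450328 for Cited1, all on the minus strand. Eya1 probe 1 lies at chr1:14154286-14154345 and probe 2 at chr1:14155865-14155924 on the minus strand, 1519 bases apart. Osr1 probe 1 lies at chr12:9605677-9605736 and probe 2 at chr12:9605243-9605302 on the plus strand, with 374 bases between them. Meox1 probe 1 is listed at chr11:101693573-101693613, a span of only 41 bases, and probe 2 at chr11:101694188-101694247, both on the minus strand and 574 bases apart. The position of the probes within exons was not analysed here, since no annotation of mm8 was used.

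All values that follow are log2 ratios of Fgfrl1-/- over wildtype after background correction and loess normalization, unless a level is named. A negative ratio means a lower signal in Fgfrl1-/-. A probe was called when limma's moderated test of the 3 ratios against 0 (2-sided) gave an adjusted p below 0.05 after Benjamini-Hochberg adjustment over all 41174 probes.

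Of the 10 member probes, 1 was called lower and 0 were called higher. Over all probes on the array, 0.398% were called lower, 0.289% higher and 0.687% in either direction. Of the member probes with a positive mean, 0 passed even at an unadjusted p below 0.05. At an unadjusted p below 0.05, 6 of the 10 member probes passed, against 15.9% of all probes. The ratio was below 0 on all 3 arrays for 6 member probes, those of Six4, Eya1, Cited1 and Meox1, against 19.2% of all probes. The ratio was above 0 on all 3 arrays for 1 member probe, Osr1 probe 2, against 19.0% of all probes. The probes of 1 gene share their RNA and are not independent, so these 10 values stand for 7 genes. The counts are a description.

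**Figure D1:**
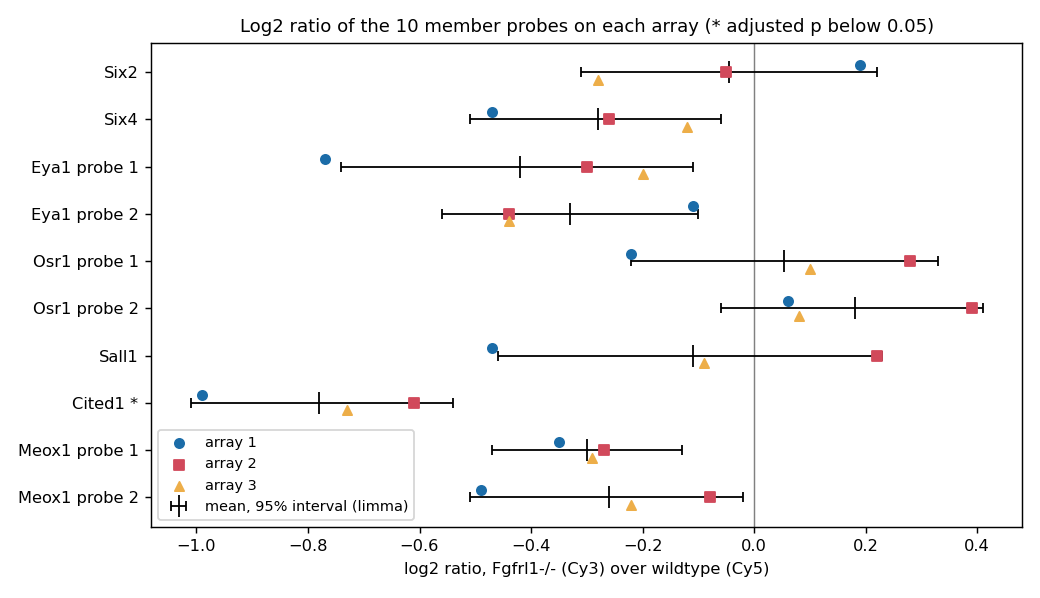
Log2 ratio of Fgfrl1-/- over wildtype (horizontal axis) for each of the 10 member probes (vertical axis), with 1 symbol for each of the 3 arrays, the mean as a vertical tick and limma's 95% interval as a bar. Cited1 lies between -0.99 and -0.61, and the only value of another member in that range is -0.77 for Eya1 probe 1 on array 1.

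Cited1 binds no DNA itself and acts with other transcription factors. The arrays gave it log2 ratios of -0.99, -0.61 and -0.73. The normalized log2 level of the probe was 10.92, 11.07 and 11.10 in the Fgfrl1-/- channel and 11.91, 11.68 and 11.84 in the wildtype channel of the 3 arrays. All Fgfrl1-/- levels thus lay below all wildtype levels, and the distance between the groups exceeded the spread within either of them. The mean ratio was -0.78 ± 0.19 (SD, n = 3), with a 95% interval of -1.01 to -0.54 and an adjusted p of 0.0442 by limma. On the linear scale this is a 1.71-fold lower level, with an interval from 1.45 to 2.02. Only 0.238% of all probes on the array had a lower mean ratio.

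The call for Cited1 rested near the threshold, and its size was largest under median centring, at -1.10. The ratio stayed between -1.10 and -0.67 under all 16 other ways of processing tried, but it passed the test in only 8 of them. Several of these ways, such as quantile normalization of the levels or the mean of probes, leave the Cited1 ratio at -0.78 by design. Such ways cannot show whether its size is stable. Without array 2 the adjusted p was 0.323 with a ratio of -0.86, and without array 3 it was 0.476 with a ratio of -0.80.

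Cited1 is encoded on the X chromosome, and the sex of the pooled embryos is not given in the labels. Xist, which is transcribed from the inactive X chromosome of females and was chosen here after its values had been seen, had log2 ratios of 1.75, -1.37 and -1.15 on its brightest probe. Ddx3y, a gene of the Y chromosome chosen in the same way, had -0.43, 0.78 and 1.48 on its brightest probe. Both genes differed in sign between array 1 and the other arrays. The part of sex in the Cited1 values was not tested.

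Six2, the homeobox factor that holds cap cells in the progenitor state, had log2 ratios of 0.19, -0.05 and -0.28 on arrays 1, 2 and 3. Its log2 level was 11.06, 9.99 and 9.90 in the Fgfrl1-/- channel and 10.87, 10.04 and 10.18 in the wildtype channel. Array 1 had the highest level in both genotypes, and the levels of the genotypes overlapped. The mean ratio was -0.046 ± 0.24 (SD, n = 3, limma adjusted p = 0.897). The 95% interval reached from -0.31 to 0.22, so that a level of Six2 in Fgfrl1-/- down to 1.24-fold lower or up to 1.16-fold higher lies within it. Without array 3 the mean turned to 0.07.

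The gap between Six2 and Cited1 had the same sign on each array. The Six2 ratio was above the Cited1 ratio by 1.18, 0.56 and 0.46 log2 units, a mean of 0.73 ± 0.39 (SD, n = 3). An exact sign-flip test over 3 arrays (2-sided) gave p = 0.25, which is the smallest value it can give. Cited1 had the lowest ratio of the 7 members on every array when each gene was read with its brightest probe. With 3 arrays this test cannot pass for any pair of members, so the gaps are given as a description.

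Six4, a homeobox factor related to Six2, had log2 ratios of -0.47, -0.26 and -0.12. The log2 level was 6.75, 7.03 and 7.24 in the Fgfrl1-/- channel over 7.22, 7.30 and 7.36 in the wildtype channel. The highest Fgfrl1-/- level lay just above the lowest wildtype level. The mean ratio was -0.28 ± 0.18 (SD, n = 3) with an unadjusted p of 0.0234, an adjusted p of 0.222 and a 95% interval of -0.51 to -0.06 in limma's fit. The probe was dim, with Fgfrl1-/- signals of 94, 69.5 and 106 against array medians of 97, 60 and 68. At a normexp offset of 0 the ratio was -0.45, with an interval of -0.91 to 0.01. With ratios centred on the array median the interval was -0.68 to 0.12.

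**Figure D2:**
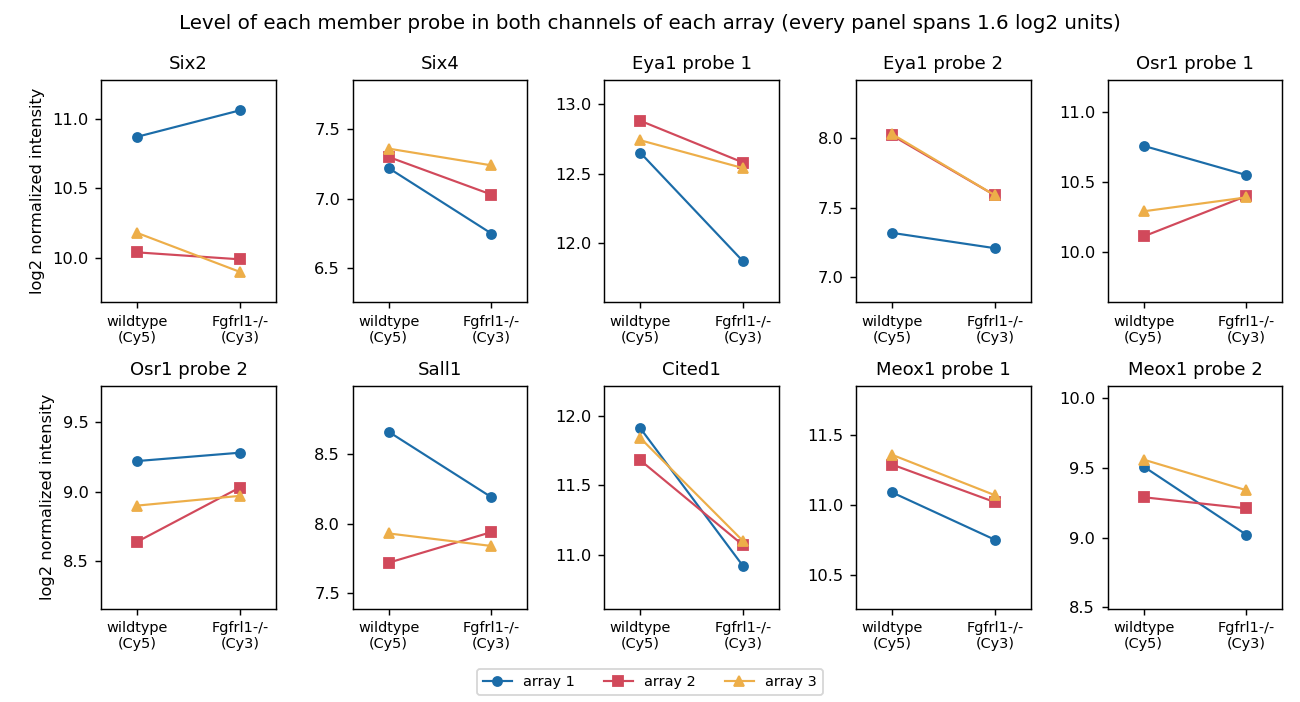
Normalized log2 intensity (vertical axis) of each member probe in the wildtype and the Fgfrl1-/- channel, with a line joining both channels of 1 array. The Fgfrl1-/- and wildtype levels do not overlap for Cited1, Eya1 probe 1 and Meox1 probe 1, and the line slopes differ in sign for Six2, Sall1 and Osr1 probe 1.

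Eya1, a phosphatase and coactivator that binds homeobox proteins such as Six4, was read by both probes below wildtype on every array. Eya1 probe 1 had log2 ratios of -0.77, -0.30 and -0.20, and probe 2 had -0.11, -0.44 and -0.44. The probes did not rank the arrays alike, since array 1 gave the largest difference on probe 1 and the smallest on probe 2. Their ratios differed by -0.66, 0.13 and 0.24, a mean of -0.09 ± 0.49 (SD, n = 3).

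On Eya1 probe 1 the log2 level was 11.87, 12.58 and 12.54 in Fgfrl1-/- and 12.65, 12.88 and 12.74 in wildtype, without overlap. On Eya1 probe 2 it was 7.21, 7.59 and 7.59 in Fgfrl1-/- and 7.32, 8.02 and 8.03 in wildtype, with overlap through array 1. The mean ratio was -0.42 ± 0.31 (SD, n = 3, limma adjusted p = 0.194) for probe 1 and -0.33 ± 0.19 (SD, n = 3, limma adjusted p = 0.179) for probe 2. Both 95% intervals lay below 0 in this fit, from -0.74 to -0.11 and from -0.56 to -0.10. Under some other ways of processing they included 0. For probe 1 the interval was -0.91 to 0.03 at a normexp offset of 0 and -0.80 to 0.10 with the scanner software's ratios. For probe 2 it was -0.83 to 0.05 with ratios centred on the array median. The adjusted p for the mean of both probes, an alternative added after seeing the data, was 0.0806 with a ratio of -0.38.

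Meox1, a homeobox factor best known from the somites and also found in cap mesenchyme, had log2 ratios of -0.35, -0.27 and -0.29 on probe 1. These values varied little, with an SD of 0.042, and 7.53% of all probes had a smaller SD. Probe 2 had log2 ratios of -0.49, -0.08 and -0.22. Both probes were thus below wildtype on each array, by differing amounts on probe 2.

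The log2 level of Meox1 probe 1 was 10.75, 11.02 and 11.07 in Fgfrl1-/- and 11.09, 11.29 and 11.36 in wildtype. The highest Fgfrl1-/- level and the lowest wildtype level nearly touched but did not overlap. On probe 2 the levels were 9.02, 9.21 and 9.34 in Fgfrl1-/- and 9.51, 9.29 and 9.56 in wildtype, and these overlapped. The mean ratio was -0.30 ± 0.042 (SD, n = 3, limma adjusted p = 0.12) for probe 1 and -0.26 ± 0.21 (SD, n = 3, limma adjusted p = 0.289) for probe 2. Without overlap between genotypes were 3 of the 10 member probes, all with Fgfrl1-/- below wildtype, against 7.26% of all probes in that direction and 6.81% in the opposite one.

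Osr1, a zinc finger factor of the early kidney mesoderm, had log2 ratios of -0.22, 0.28 and 0.10 on probe 1 and 0.06, 0.39 and 0.08 on probe 2. Its log2 level on probe 1 was 10.55, 10.40 and 10.39 in Fgfrl1-/- and 10.76, 10.11 and 10.29 in wildtype. On probe 2 it was 9.28, 9.03 and 8.97 in Fgfrl1-/- and 9.22, 8.64 and 8.90 in wildtype. The genotypes overlapped on both probes. The mean ratio was 0.054 ± 0.25 (SD, n = 3, limma adjusted p = 0.881) with an interval of -0.22 to 0.33 on probe 1, and 0.18 ± 0.19 (SD, n = 3, limma adjusted p = 0.448) with an interval of -0.06 to 0.41 on probe 2. Without array 2 the mean of probe 1 turned to -0.061.

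Sall1, a zinc finger factor needed for invasion of the mesenchyme by the ureteric bud, had log2 ratios of -0.47, 0.22 and -0.09. Its log2 level was 8.19, 7.94 and 7.84 in the Fgfrl1-/- channel and 8.66, 7.72 and 7.93 in the wildtype channel. Array 1 had the lowest ratio, and without it the mean turned to 0.066. The mean ratio over all arrays was -0.11 ± 0.34 (SD, n = 3, limma adjusted p = 0.779), with an interval of -0.46 to 0.23. The spread of Sall1 was among the wider ones, as 91.7% of all probes had a smaller SD.

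Array 1, the only one of its slide, was also read with an earlier version of the scanner software. When array 1 was left out, which left only the arrays of the same slide, 4 member probes were called lower, namely both Eya1 probes, Cited1 and Meox1 probe 1. In that fit 10.1% of all probes were called lower and 8.49% higher, many more than with 3 arrays. The adjusted p was 0.0343 for Eya1 probe 1, 0.00137 for Eya1 probe 2 and 0.0178 for Meox1 probe 1 in limma's fit, with ratios of -0.25, -0.44 and -0.28. The Cited1 ratio in it was -0.67. When array 2 or array 3 was left out, 0 member probes and 0 of all probes were called, with unadjusted p below 0.05 for 4 of the 10 member probes in either case. Of all 41174 probes, 3712 without array 2 and 3141 without array 3 had such a p. The calls given below for genes outside the set were lost in these fits too.

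The loess normalization took different amounts from the members on each array. Before normalization, all 10 member probes had a lower median signal in the Fgfrl1-/- channel than in the wildtype channel on arrays 2 and 3. The same held for the whole array, with a median signal of 60 against 113 on array 2 and 68 against 107.5 on array 3. Compared with ratios centred on the median of each array, loess moved the members by between -0.24 and -0.01 on array 1, by between 0.16 and 0.86 on array 2 and by between 0.05 and 0.31 on array 3. The largest shift was that of Eya1 probe 1 on array 2, from -1.16 to -0.30. Cited1 moved there from -1.39 to -0.61.

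Under median centring Cited1 had a mean of -1.10, Eya1 probe 1 of -0.81, Meox1 probe 1 of -0.61 and Six2 of -0.30, and Osr1 probe 1 turned to -0.21. Cited1 was still the only member called in that fit. Of all calls 97.8% were then towards lower levels, against 58.0% with loess. Cited1 again had the lowest mean of the members and Osr1 probe 2 the highest, at 0.012.

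**Figure D3:**
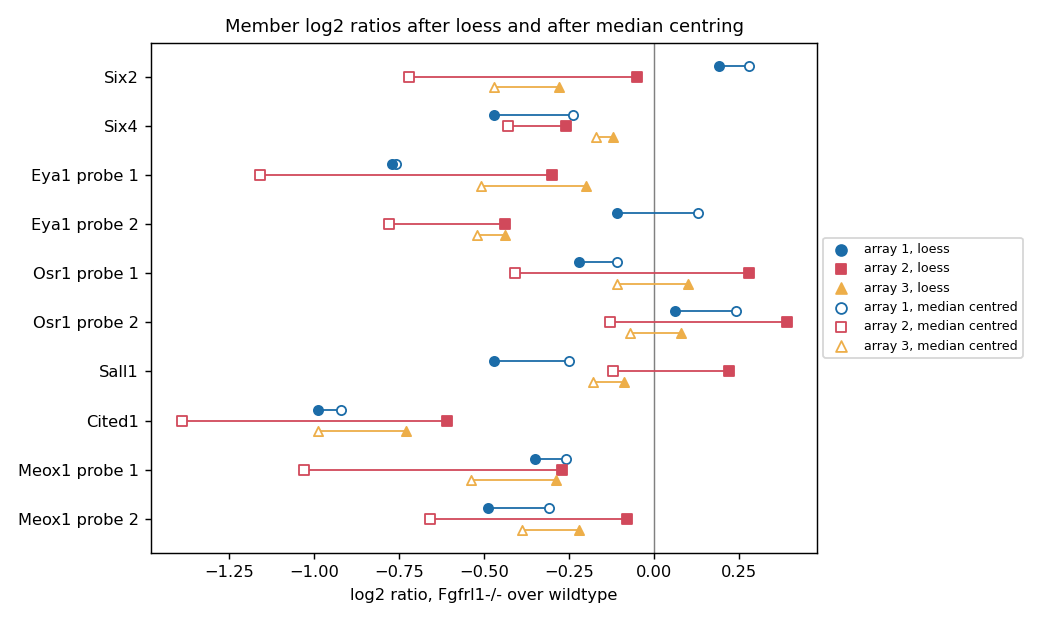
Log2 ratio of Fgfrl1-/- over wildtype (horizontal axis) of each member probe (vertical axis) on each array after loess (filled) and after centring on the array median (open), joined by a line. On array 2 all members move to the right, with Cited1 going from -1.39 to -0.61, while on array 1 all move to the left.

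The paralogs of the members were read by 1 probe per gene, the brightest. Of 13 paralogs, 1 was called lower and 0 higher, and their median ratio was 0.059, against -0.28 for the members and 0.0069 for all 19750 named genes, of which 1.08% were called. Meox2, the paralog of Meox1, had log2 ratios of -0.52, -0.73 and -0.72 and fell by 0.66 on average (SD 0.12, n = 3, limma adjusted p = 0.0439). Its dimmer probe, at -0.56, did not pass the test (limma adjusted p = 0.0754). Under median centring, at a normexp offset of 0 and with the scanner software's ratios, 0 paralogs were called lower. The same held with dim probes left out, in the authors' table and with 1 mean value per slide.

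Osr2, the paralog of Osr1, had a lower value, with log2 ratios of -1.07, -0.55 and -0.67 (mean -0.76 ± 0.27, SD, n = 3, limma adjusted p = 0.0668). It did not pass the test in this fit, and its Fgfrl1-/- channel was well above background on only 1 of 3 arrays. Its size depended on the treatment of the background, with -1.84 at a normexp offset of 0, -2.52 in the scanner software's ratios and -1.01 without background subtraction. It passed in the last of these (limma adjusted p = 0.0426), with separate channels (0.0324) and without array 1 (0.000174). All 4 probes of Cited2, the paralog of Cited1, had negative ratios on every array, with means between -0.59 and -0.36 and adjusted p between 0.0504 and 0.102. Cited2 was chosen here after its values had been seen, and none of its probes was called.

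Eya proteins and their homeobox partners act together with Dach corepressors in the network first known from the eye. Of 8 partners of the members in this network, 1 was called lower and 0 higher, with a median of 0.046. Six3, Six5, Six6, Eya2, Eya3 and Eya4 are also among the 13 paralogs, read with the same probes. The medians of both lists are thus not independent, and only Dach1 and Dach2 are new here. The scanner software marked Six6 as well above background on 0 arrays, and Six3 only on 1 array in Fgfrl1-/-. Six3 and Six6 were named after their values were seen. Dach1 had log2 ratios of -0.67, -1.02 and -0.99 and fell by 0.89 (SD 0.19, n = 3, limma adjusted p = 0.0408) on its brighter probe. The other Dach1 probe had a mean of -0.39 and was not called (limma adjusted p = 0.168). The Dach2 ratio was -0.65 ± 0.25 (SD, n = 3, limma adjusted p = 0.0823) on its brightest probe, and -0.05 and -0.07 on the dimmer ones. Under the other ways of processing, Dach1 was called in 7 of 16.

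Among 14 other cap mesenchyme genes, 3 were called lower and 0 higher, and the median ratio was -0.17. The median was -0.28 with the scanner software's ratios and -0.46 under median centring, and 0 were called in 5 of the ways of processing that keep all arrays. Gdnf, the ligand by which the mesenchyme draws the ureteric bud, fell by 0.83 (SD 0.18, n = 3, limma adjusted p = 0.0421). Itga8, an integrin chain of the mesenchyme, fell by 0.78 (SD 0.057, n = 3, limma adjusted p = 0.0346), and Tmem100, a membrane protein, fell by 0.68 (SD 0.098, n = 3, limma adjusted p = 0.0416). The remaining 11 genes had ratios between -0.42 and 0.0025 and did not pass.

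The early nephron genes, which come on when cap cells begin to form the renal vesicle, had a lower median than the members. Of 15 such genes, 9 were called lower and 0 higher, with a median of -1.13. The largest differences were those of Wnt4 at -2.40, Dkk1 at -2.25, Fgf8 at -2.05, Lhx1 at -1.72 and Hes5 at -1.39. Osr2 at -0.76, Ccnd1 at -0.40, Pou3f3 at -0.28 and Cdh6 at 0.23, named after their values were seen, lay at the other end of the list and were not called. Jag1 at -1.28 (limma adjusted p = 0.0604) and Pax8 at -0.91 (limma adjusted p = 0.0509), named in the same way, were not called either. The median was -1.72 at a normexp offset of 0, -1.84 with the scanner software's ratios and -0.88 for the mean of probes. With 1 mean value per slide, at an offset of 0 and with the scanner software's ratios, 0 of the list were called.

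The rudiments also hold stroma, the interstitial mesenchyme around the caps. Of 10 stromal genes, 2 were called higher and 0 lower, with a median of 0.44. Under median centring this median was 0.083 and 0 were called higher, and 0 were also called at a normexp offset of 0, with the scanner software's ratios and with 1 mean value per slide. Pdgfra, a growth factor receptor of the stroma, rose by 1.02 (SD 0.093, n = 3, limma adjusted p = 0.0274), and Col1a1, a chain of collagen I, rose by 0.84 (SD 0.18, n = 3, limma adjusted p = 0.0416). A rise of Col1a1 was not seen in the study's own quantitative PCR at E12.5. The same PCR gave lower levels in Fgfrl1-/- for Wnt4, Dkk1, Fgf8, Lhx1, Gdnf, Itga8, Dach1, Osr2, Jag1 and Pax8. The genes listed for that PCR include no member of the set. The summed log2 level of the stromal list lay between 17.09 and 17.37 in Fgfrl1-/- and between 16.62 and 16.69 in wildtype, a sum in which bright probes weigh most. For the members the sum lay between 13.48 and 13.68 in Fgfrl1-/- and between 13.95 and 14.02 in wildtype. The sums of the network partners and of the other cap mesenchyme, early nephron, neural and blood lists were also lower in Fgfrl1-/-, without overlap. The ureteric sum, like the stromal one, was higher without overlap. Sums that do not overlap were thus not particular to cap genes, and no share over all genes was computed for sums. The blood list had a lower sum though its median ratio was 0.15. In the member sum the brightest probe was Eya1 probe 1, which was not called. At an unadjusted p below 0.05, 7 stromal genes had a positive and 1 a negative ratio, against 15.9% of all probes that passed in either direction. All 10 stromal markers were well above background. The part of the cell composition in the member values was not tested.

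Of 11 genes of the ureteric epithelium 1 was called lower, Wnt11 of the bud tips, which fell by 0.76 (SD 0.13, n = 3, limma adjusted p = 0.0408), and 0 were called higher. At an unadjusted p below 0.05 in limma's fit, 5 ureteric genes had a positive and 2 a negative ratio. The ratio was above 0 on all 3 arrays for 5 ureteric genes and below 0 on all 3 for 3 of them. Ret, named after its values were seen, was marked by the scanner software as well above background on 0 arrays for either dye. The median of the list was 0.15, and the summed level lay between 14.62 and 14.96 in Fgfrl1-/- and between 14.45 and 14.50 in wildtype. The median turned to -0.044 under median centring and to -0.079 with the scanner software's ratios, where 0 genes were called lower, and it was 0.055 without array 1. For muscle, where Meox1 is also known, 0 of 10 genes were called by limma, also at an unadjusted p below 0.05, with a median of -0.018 and summed levels of 11.84 to 12.29 and 11.99 to 12.32. Of the muscle markers Myf5 and Pax3 were not well above background in either channel on any array. Single muscle genes varied between arrays, with -0.06, 1.88 and 0.48 for Myh3 and 0.30, -0.01 and -0.38 for Myod1. Both were named after their values were seen. The gonad and adrenal, neural, endothelial and blood lists had 0 calls by limma among 6, 6, 6 and 7 genes, with medians between -0.10 and 0.15. At an unadjusted p below 0.05, 0, 1, 0 and 3 genes of these lists passed, the neural one with a negative ratio and those of the blood list with positive ratios.

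**Figure D4:**
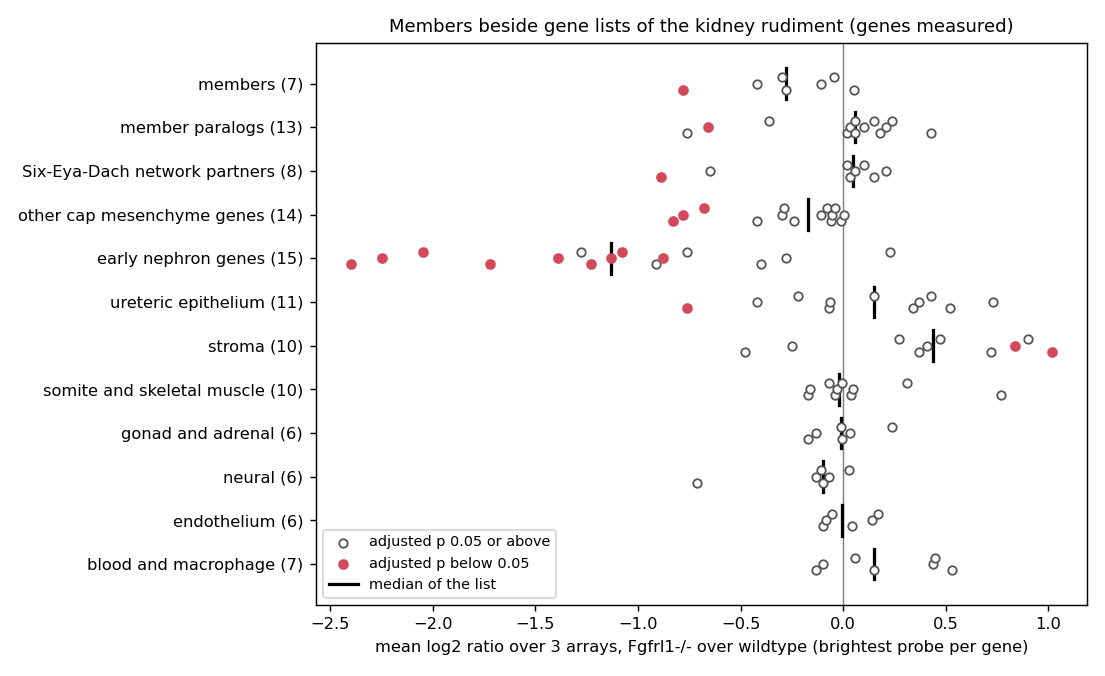
Mean log2 ratio of Fgfrl1-/- over wildtype over 3 arrays (horizontal axis) of each gene on its brightest probe, by list (vertical axis, with the number of genes measured). Filled circles were called at an adjusted p below 0.05, and the bar is the list median, -0.28 for the members and -1.13 for the early nephron genes.

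For each member the genes with the most similar ratios over the 3 arrays were sought among the named probes well above background on every array, 20558 candidates in all. With only 3 values, many genes lie close to any pattern near 0. For Cited1 the nearest was Gdnf, with ratios of -1.02, -0.66 and -0.81 at a Euclidean distance of 0.096 log2 units, and the second was Pla2g7, a secreted phospholipase, at 0.12.

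For the other members the distance to the nearest gene was between 0.0091, for Ufl1 beside Six2, and 0.026, for Gpatch4 beside Meox1. The second gene beside Six2 was Nr3c1 and beside Meox1 Fam91a1. Six4 was closest to 1600014C10Rik and Napepld, Eya1 to Derl3 and Plk4, Osr1 to Map4 and Cd300a, and Sall1 to Otub1 and Xk.

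**Figure D5:**
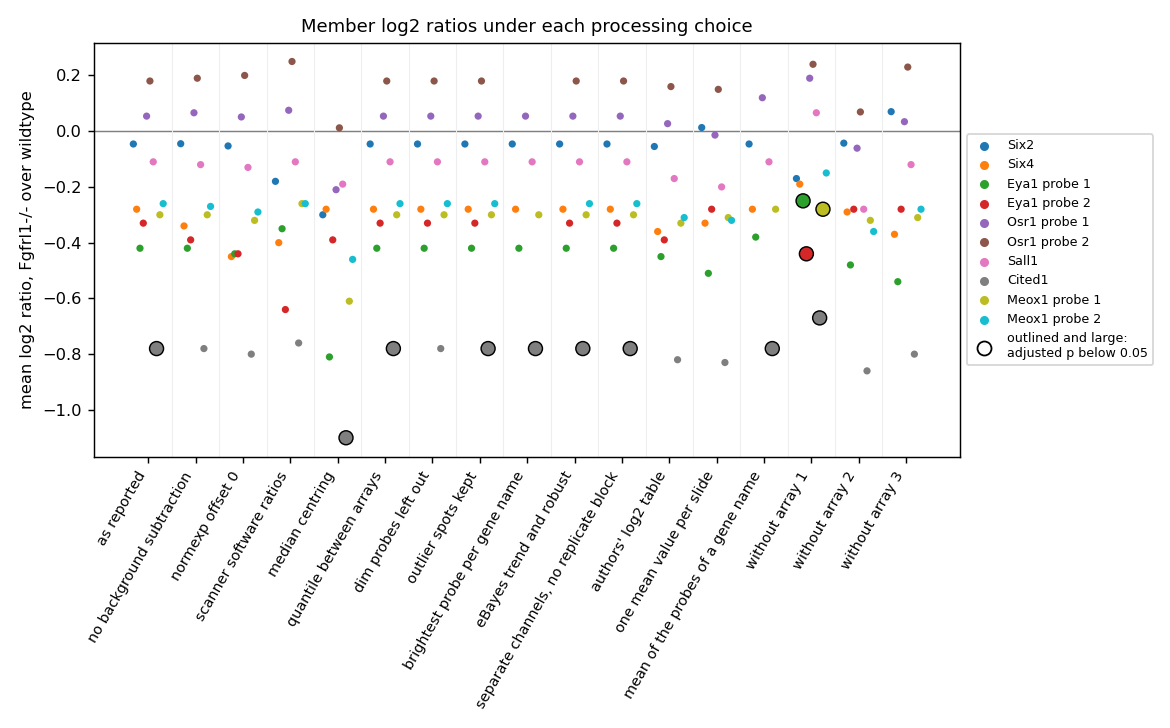
Mean log2 ratio of Fgfrl1-/- over wildtype (vertical axis) of each member probe under each way of processing (horizontal axis), with large outlined circles where the adjusted p was below 0.05. Cited1 stays between -1.10 and -0.67 and is called in some settings only, and Eya1 and Meox1 are called only without array 1.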

How the data were processed

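Array 1 was read with Agilent Feature Extraction 9.5.3.1 and the others with 10.5.1.1, while the labels name version 10. In the scanner output deposited by the authors, the median spot signals and local backgrounds are raw intensities that were not normalized. The deposited log10 ratio of wildtype over Fgfrl1-/- was made by the software after its own background subtraction and dye normalization. The authors also deposited a log2 table per probe, made in R. Its direction, Fgfrl1-/- over wildtype, was read from its negative relation to the scanner ratios. The steps behind it are not given in the sources used here. Its columns had medians of -0.018, 0 and 0.003.

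Each array held 45018 spots, of which 1639 were controls and 0 were saturated. In limma 3.58.1 (R 4.3.3), median signals were corrected with normexp at an offset of 50, ratios were normalized by loess, outlier spots (107, 113 and 138) were left out and spots of a probe averaged. The ratio was tested with lmFit and eBayes, so that the pools of an array were paired, with Benjamini-Hochberg adjustment over 41174 probes. Levels came from the loess ratios after Aquantile. Probes were named through RefSeq (GRCm38.p6), and 8072 stayed without a name. Summed levels are log2 of summed linear levels over the brightest probes. The fit was tested on simulated data. The number of arrays limits the precision. Member ratios, list values and counts were computed again under 16 alternatives. Members and lists were chosen with earlier results of these data known. Named were all member probes, per list up to 5 called genes with the largest difference, Dach1, Osr2, Fgfrl1 and the 2 genes most like each member; others are marked as chosen after their values were seen. One gene of the lists is not reported here and was left out of their counts.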

Additional observations from a re-analysis of the deposited data

How the results depend on the processing

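The mean ratios of Six4, both Eya1 probes, Osr1 probe 2, Cited1 and both Meox1 probes kept their sign under every alternative run. Six2 turned to 0.013 with 1 mean value per slide. Osr1 probe 1 turned to -0.21 under median centring and to -0.014 with 1 value per slide. Cited1 kept its call under median centring, quantile normalization of the levels (which leaves the ratios as they are), outlier spots kept, the brightest probe per name, a trended and robust fit, the mean of probes and a fit of separate channels in place of the paired ratio (no replicate block, ratio -0.78). It missed the threshold without background subtraction (-0.78, limma adjusted p = 0.0558), at an offset of 0 (-0.80, 0.381), with the scanner ratios (-0.76, 0.192), with dim probes left out (-0.78, 0.0596), in the authors' table (-0.82, 0.0908) and with 1 value per slide (-0.83, 0.411). In those 6 settings 0 member probes were called lower, with 5, 2, 4, 5, 5 and 4 at an unadjusted p below 0.05, as were 6466, 4852, 6118, 5149 (of 24902), 5944 and 3449 of all probes. Calls over all probes, 164 lower and 119 higher, became 0 and 0 at an offset of 0, with the scanner ratios and with 1 value per slide, 91 and 2 under median centring, 34 and 7 with dim probes left out (82.9% lower), 32 and 4 in the authors' table (88.9% lower), 117 and 72 without background subtraction and 235 and 220 with separate channels. With each array left out in turn, the range was -0.17 to 0.07 for Six2, -0.54 to -0.25 for Eya1 probe 1, -0.44 to -0.28 for Eya1 probe 2, -0.061 to 0.19 for Osr1 probe 1, 0.069 to 0.24 for Osr1 probe 2, -0.28 to 0.066 for Sall1, -0.86 to -0.67 for Cited1, -0.32 to -0.28 for Meox1 probe 1, -0.36 to -0.15 for Meox1 probe 2, -0.37 to -0.19 for Six4, 0 to 4 for member probes called lower, 0 to 4172 for all probes called lower and 0 to 3494 for those called higher. Without array 2 and without array 3, 3712 and 3141 probes had an unadjusted p below 0.05. The cause of these differences was not tested. The slide as a random block could not be fitted. Dye and genotype cannot be told apart, and 3 arrays from 2 slides limit every value.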
